A study of Mus musculus with 32 samples.

Results

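Eugenol was compared with vehicle in the GFP-negative cells of dissociated olfactory mucosa from adult S100a5-tauGFP mice. The comparison used 8 of the 32 arrays of the study, selected by their titles: 4 of eugenol, GFP-negative and 4 of vehicle, GFP-negative, all from the eugenol experiments. A number in the titles joins the arrays into 4 experiments, called experiments 1 to 4 here, and each gave 1 eugenol and 1 vehicle array of GFP-negative cells. The study asked which odorant receptors respond to an odorant in living mice, and its other arrays hold the GFP-positive cells of the same experiments and matching experiments with the musk odorant muscone.

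All mice carried the S100a5-tauGFP reporter, those given vehicle included. Each was kept singly in an olfactometer, first with clean air (26 h) and then with eugenol or vehicle (14 h), given as a 10 s pulse at intervals of 5 min. The labels give the cells as adult olfactory epithelium sorted by fluorescence, and they do not name the vehicle. Neither the age in weeks nor the number of mice behind an array is given in the sources used here, and nothing says that replicate arrays stand for separate mice. The p-values therefore measure the spread between arrays, which may be technical. That spread is pooled over all 32 arrays, GFP-positive and muscone arrays included, and is not taken from the 8 arrays alone.

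Each olfactory sensory neuron expresses a single odorant receptor gene, and the receptor decides which odorants the neuron detects. S100a5 is a calcium-binding protein whose gene is expressed in olfactory sensory neurons according to their activity, so GFP under its control marks neurons that have been active. The GFP-negative fraction therefore holds 2 kinds of cell together: neurons with little reporter, and the supporting, glandular, basal and immune cells of the mucosa. Eugenol is the main odorant of clove.

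Signals are log2 intensities as deposited, and every difference is eugenol minus vehicle in log2 units, with its standard error (SE) from limma. Array medians over all probe sets ran from 7.60 to 8.81 on the 8 arrays, and the 4 differences between eugenol and vehicle medians ran from -0.15 to 0.06. A total of 19938 genes were tested, 1027 of them odorant receptors. The vomeronasal receptors, which belong mainly to another organ, had a median of 4.74, and their 90th percentile of 6.05 is used as the dim level. That level was exceeded by 18168 genes and by 959 of the odorant receptors. In the GFP-negative cells Omp, the protein that defines mature olfactory neurons, had a signal of 13.97 ± 0.26 under vehicle and 13.93 ± 0.21 under eugenol (SD, n = 4), against 14.10 ± 0.28 in GFP-positive cells under vehicle. All 15 mature neuron markers, all 8 sustentacular markers measured and all 15 immune markers lay above the dim level, so signals of both neurons and other cells were measured.

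S100a5 set experiment 1 apart from the others. Its signals under vehicle in GFP-negative cells were 11.09, 7.65, 5.98 and 6.89 in experiments 1 to 4, and under eugenol they were 10.62, 6.87, 5.79 and 6.90. Experiment 1 was the highest of the 4 in both groups, and also in the GFP-positive cells, where it reached 12.16 under vehicle against 6.33 to 8.08 in the other experiments. The difference of S100a5 between eugenol and vehicle was -0.36 (SE 0.21), and experiments 1 to 4 gave -0.47, -0.79, -0.19 and 0.01. Without experiment 2 the difference was -0.22. In experiment 3 both signals lay under the dim level. That level was set over all 8 arrays, and the arrays of experiment 3 had the lowest medians, 7.60 under eugenol and 7.63 under vehicle. The labels do not say whether the mice of different experiments carried the same number of reporter copies, so what an S100a5 level means across experiments is uncertain. The part of this gap in the results was not tested.

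No gene passed the test. Of 19938 genes, 0 (0%) had an adjusted p under 0.05 in limma, and the smallest adjusted p was 0.9999. At a raw p under 0.05 there were 466 genes (2.34%), fewer than the 1 in 20 that chance alone would give. Of these, 381 were lower with eugenol (1.91% of all genes) and 85 were higher (0.426%). That split depended on the scaling of the arrays: it was 303 lower and 148 higher with arrays centred on their medians, 278 and 232 after quantile normalization, 36 and 294 with arrays centred on the mature neuron genes, and 26 and 584 centred on the odorant receptors. Without experiment 1 the count at a raw p under 0.05 was 1295, without experiment 2 it was 117 (44 lower and 73 higher), and 0 genes passed the adjusted threshold in either fit. Differences were small: the median over all genes was -0.04, the median size was 0.07 and the median SE was 0.10. In all 4 experiments 1219 genes (6.11%) were lower with eugenol and 468 (2.35%) were higher.

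Odorant receptors stood first among the genes ordered by p. They made up 4 of the 5 genes with the smallest p, and 6 of the first 20. Of the 51 genes lower by more than 0.5, 44 were odorant receptors, a share of 86.3%, while odorant receptors were 5.15% of the genes tested. Among the 27 genes higher by more than 0.5 there were 2. The count of 44 was 8 without experiment 2, 130 without experiment 1 and 94 without experiment 4. The SE of the odorant receptors had a median of 0.21, beside 0.10 for all genes. The largest single difference was that of Lcn4, a lipocalin, at 1.22 (SE 0.52), named after its values were seen. Its experiments ran from 3.42 in experiment 2 to -0.49 in experiment 4, and the difference was 0.48 without experiment 2.

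The 3 receptors linked to eugenol with the largest differences lie near each other on chromosome 9. Olfr961 and Olfr960 are direct neighbours in the RefSeq gene order of GRCm38.p6, with 0 annotated genes between them, and 3 genes separate Olfr960 from Olfr958. The first 50 bases from each RefSeq start are shown for these 3 genes and for Olfr963. Olfr963 is the closest match to Olfr961 in the windows around the start compared below. It is shown because near-identical receptors can share signal on an array. Capitals mark the ATG at which each window starts, and the sequences run 5′ to 3′ on the strand of the gene.
Olfr961 (chr9:39646728-39646777, plus strand): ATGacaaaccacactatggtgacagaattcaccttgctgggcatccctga
Olfr960 (chr9:39623125-39623174, plus strand): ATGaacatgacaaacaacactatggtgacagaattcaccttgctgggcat
Olfr963 (chr9:39669059-39669108, plus strand): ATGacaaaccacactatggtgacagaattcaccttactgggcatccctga
Olfr958 (chr9:39550820-39550869, minus strand): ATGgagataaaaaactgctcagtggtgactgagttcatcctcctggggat
Over 300 bases around the start (250 before it and 50 after), Olfr961 matched Olfr963 at 81.3% and Olfr960 at 79.5% of the aligned positions. Olfr958 aligned to Olfr961 over 68 positions only. Among 944 odorant receptor windows, Olfr963 and Olfr960 had the highest alignment scores with Olfr961, at 180 and 163, and the next receptor scored 26. Most of each window lies before the start, so these scores do not show how alike the coding or probe sequences are. Whether the probes of Olfr961, Olfr960 and Olfr963 cross-hybridise was not tested, so their values are uncertain as separate measurements.

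Olfr961 had the smallest raw p of all 19938 genes. Its signals under vehicle were 8.91, 10.21, 8.59 and 8.91 in experiments 1 to 4, and under eugenol they were 8.66, 8.995, 7.65 and 8.24. The eugenol array was the lower one in every experiment, although the 2 groups overlapped because the experiments differed in level. The means were 9.16 ± 0.72 under vehicle and 8.39 ± 0.58 under eugenol (SD, n = 4). The difference was -0.77 (SE 0.17), a signal 1.71-fold higher under vehicle with an adjusted p of 0.9999 in limma.

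Olfr960, its neighbour, had signals of 6.86, 9.30, 6.61 and 6.60 under vehicle and 6.71, 7.45, 5.74 and 6.03 under eugenol. Eugenol was again the lower array in all 4 experiments, and the vehicle array of experiment 2 stood above the rest. The difference was -0.86 (SE 0.21), which ranked 2 among the 1027 odorant receptors by size, and without experiment 2 it was -0.53. Olfr958 had the highest signals of this group, 9.87, 11.07, 9.71 and 9.79 under vehicle and 9.78, 9.86, 8.54 and 9.37 under eugenol. Its difference was -0.72 (SE 0.23), with eugenol lower in all 4 experiments and by only -0.10 in experiment 1.

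The remaining receptors linked to eugenol were less alike. Olfr73, known as mOR-EG and studied as a eugenol receptor in cultured cells, had signals of 8.93, 10.26, 8.42 and 8.11 under vehicle and 8.50, 9.14, 7.91 and 7.90 under eugenol. Its difference was -0.57 (SE 0.21), lower in all 4 experiments. Olfr913 was lower in 3 of 4 experiments, with a difference of -0.53 (SE 0.33), and its experiments ran from -1.86 to 0.49. Without experiment 2 it was at -0.09 and without experiment 1 at -0.87. Olfr74, known as mOR-EV, had vehicle signals of 8.47, 9.02, 7.83 and 8.71 and eugenol signals of 8.42, 9.67, 7.88 and 8.14. These values showed no common direction, and the difference was 0.02 (SE 0.35).

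**Figure D1:**
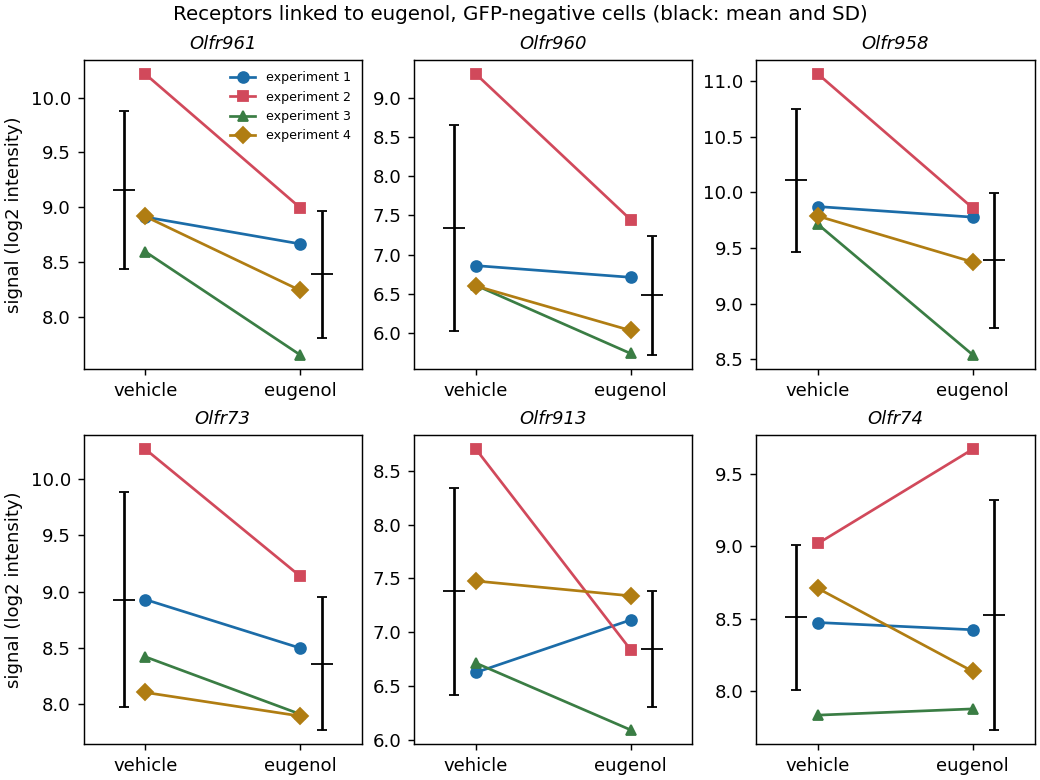
Signal (log2 intensity, vertical axis) of the 6 receptors linked to eugenol in GFP-negative cells under vehicle and eugenol. Lines join the 2 arrays of an experiment, and black bars give the mean and SD of 4 arrays. Lines run downward in all 4 experiments for Olfr961, Olfr960, Olfr958 and Olfr73, and the vehicle array of experiment 2 is the highest vehicle point in each panel.

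Of the 6 receptors linked to eugenol, 0 passed the adjusted threshold and 4 were lower at a raw p under 0.05, beside 1.91% of all genes and 4.48% of odorant receptors. The same 4 were lower in all experiments, beside 6.11% of all genes and 10.8% of odorant receptors. The median difference of the 6 was -0.65, and experiments 1 to 4 gave medians of -0.12, -1.21, -0.75 and -0.49. The median over all odorant receptors was -0.14 and that over all genes -0.04. The list was written with earlier results on these mice known and is not independent evidence of its direction. Without experiment 2 its median was -0.46 and 3 of the 6 were lower at a raw p under 0.05. Without experiment 1 the median was -0.90 and the count was 5.

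Odorant receptors as a class had their lowest differences between eugenol and vehicle in experiment 2. Their signals were not low there: in summed signal they were at 19.52 under eugenol and 20.07 under vehicle. Each was the highest of the 4 arrays of its group. The median over the 1027 receptors was 0.10, -0.54, -0.10 and -0.05 in experiments 1 to 4, and 36.1%, 84.0%, 65.1% and 56.1% of the receptors were lower with eugenol. In the fit 79.3% were lower, beside 66.4% of all genes. At a raw p under 0.05 there were 46 receptors lower and 4 higher (4.48% and 0.389%, beside 1.91% and 0.426% of all genes), and 111 were lower in all 4 experiments. With arrays centred on the odorant receptors these counts were 20 lower and 14 higher, and centred on the mature neuron genes 20 lower and 10 higher. Without experiment 2 the median over receptors was -0.01 and 9 were lower at a raw p under 0.05. Without experiment 1 the median was -0.22 and the count was 108.

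Of the receptors linked to eugenol, 4 were lower than the median receptor in every experiment. How many of all 1027 receptors were so was not counted, so this does not set the 4 apart. Relative to the median of all odorant receptors on the same 2 arrays, Olfr961 was at -0.34, -0.68, -0.84 and -0.63 in experiments 1 to 4. The mean of these 4 values was -0.62 ± 0.21 (SD, n = 4). Olfr960 gave -0.72 ± 0.46, Olfr958 -0.58 ± 0.39 and Olfr73 -0.42 ± 0.19, each lower than the median receptor in all 4 experiments. Their ranks varied: in single experiments Olfr958 ranked 246 from the lowest of 1027 (experiment 1) and Olfr73 ranked 247 (experiment 4). Olfr913 gave -0.39 ± 0.73, with 0.39 and rank 952 in experiment 1, and Olfr74 gave 0.17 ± 0.73. By size of the difference Olfr961 ranked 6 and Olfr958 ranked 9 among 1027 receptors, and the ranks of Olfr73, Olfr913 and Olfr74 were 22, 37 and 842.

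**Figure D2:**
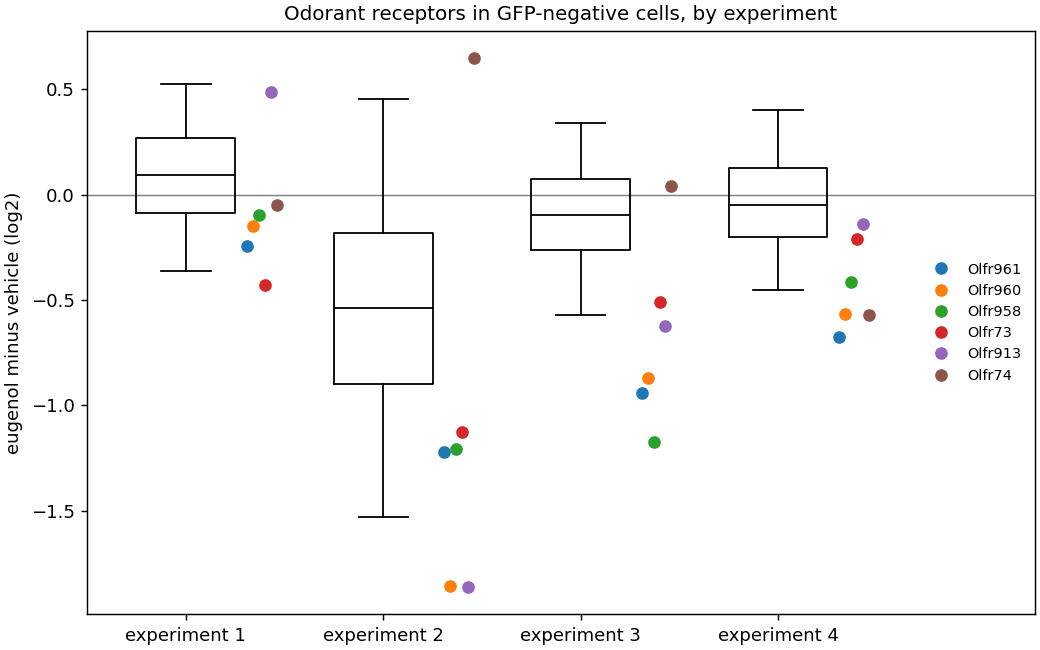
Difference of eugenol minus vehicle (log2) of 1027 odorant receptors in each experiment of GFP-negative cells. Boxes span the quartiles with the median as a line, whiskers run from the 5th to the 95th percentile, and coloured points are the 6 receptors linked to eugenol. The box of experiment 2 is centred at -0.54, and Olfr961, Olfr960, Olfr958 and Olfr73 lie under the median line in every experiment.

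Other odorant receptors had p-values nearly as small as that of Olfr961. Olfr1085 had signals of 7.15, 7.90, 6.89 and 7.16 under vehicle and 6.81, 7.29, 6.01 and 6.55 under eugenol. Its difference was -0.61 (SE 0.13), and it was as low in experiments 3 and 4 (-0.87 and -0.60) as in experiment 2 (-0.61). Without experiment 2 it was still -0.61. Olfr1512 had signals of 9.48, 10.63, 8.64 and 9.15 under vehicle and 9.01, 9.07, 8.23 and 8.96 under eugenol. Its difference was -0.66 (SE 0.15), with -1.56 in experiment 2, and -0.35 without that experiment.

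Olfr1082, with 2 genes between it and Olfr1085, was at -0.55 (SE 0.18), Olfr933 at -0.54 (SE 0.18) and Olfr904 at -0.57 (SE 0.19), each lower in all 4 experiments and with a raw p under 0.05. Without experiment 2 Olfr933 was at -0.32 and Olfr904 at -0.25. The largest difference of any receptor was that of Olfr996, -0.95, named after its values were seen. It came to -2.67 in experiment 2 and to -0.02 in experiment 1, and the difference was -0.38 without experiment 2. Of the receptors higher in all 4 experiments, Olfr645 had the smallest p, with a difference of 0.20 (SE 0.08). Olfr944 was at 0.41 (SE 0.17) and Olfr142 at 0.27 (SE 0.15).

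The genes around Olfr961 on chromosome 9 did not share its difference evenly. Olfr963, its closest match in the windows compared, was at -0.39 (SE 0.14). Olfr148, next to Olfr960, was at -0.42 (SE 0.18) and at -0.19 without experiment 2. Olfr957, Olfr959 and Olfr149 were at -0.07, -0.11 and -0.07, all smaller than their SE. Arrays centred on the mature neuron genes gave 0.03 for both Olfr957 and Olfr149, and centred on the odorant receptors the values were 0.06 for both and 0.02 for Olfr959. AW551984, the only measured gene of this stretch outside the receptor family, was at -0.07 (SE 0.10). Olfr965 was at -0.27 (SE 0.28), and at 0.04 without experiment 2. In gene order the measured receptors Olfr148, Olfr960, Olfr961 and Olfr963 followed one another, with Olfr959 and Olfr149 among those to either side.

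The same contrast in the GFP-positive cells of these experiments gave other values for the eugenol receptors. Olfr961 was at 0.32 (SE 0.17) in GFP-positive cells, where its signals under vehicle were 10.33, 11.16, 10.04 and 9.59 and under eugenol 10.64, 11.29, 10.35 and 10.13. Eugenol was the higher array there in all 4 experiments and the lower one in GFP-negative cells in all 4. The difference between the fractions was -1.09 (SE 0.24), the smallest p of all genes in that test. Olfr958 was at 0.21 in GFP-positive cells and differed between fractions by -0.93 (SE 0.32). Olfr960 was at 0.00 and differed by -0.86 (SE 0.30). Each of these 2 differed in the same direction in all 4 experiments. For Olfr73, at -0.20 in GFP-positive cells, the fractions differed by -0.37 (SE 0.29).

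No gene passed the test of this difference between fractions: 0 of 19938 (0%) had an adjusted p under 0.05 in limma. At a raw p under 0.05 there were 237, fewer than chance alone would give. Without experiment 1 that count was 293, without experiment 2 it was 623, and without experiment 3 it was 135. The 237 were 145 genes higher in GFP-negative than in GFP-positive cells (0.727%) and 92 lower (0.461%). Of 1027 odorant receptors, 7 were lower by this rule, among them Olfr961, Olfr960, Olfr958 and Olfr1085, and 7 were higher. At any size, 181 receptors were lower in GFP-negative cells and higher in GFP-positive cells. Of these, 5 were lower by more than 0.5 in GFP-negative cells. How many of all genes met either rule was not counted. Among the 5 were Olfr961, Olfr958 and Olfr1085, at 0.32 (SE 0.17), 0.21 (SE 0.23) and 0.035 (SE 0.13) in GFP-positive cells. The receptors linked to eugenol were listed with earlier results of these data known, so their place here is not independent evidence. Across odorant receptors the differences in the 2 fractions had a Pearson correlation of 0.19, and across all genes 0.14. The arrays of both fractions come from the same experiments, and genes are not independent replicates.

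**Figure D3:**
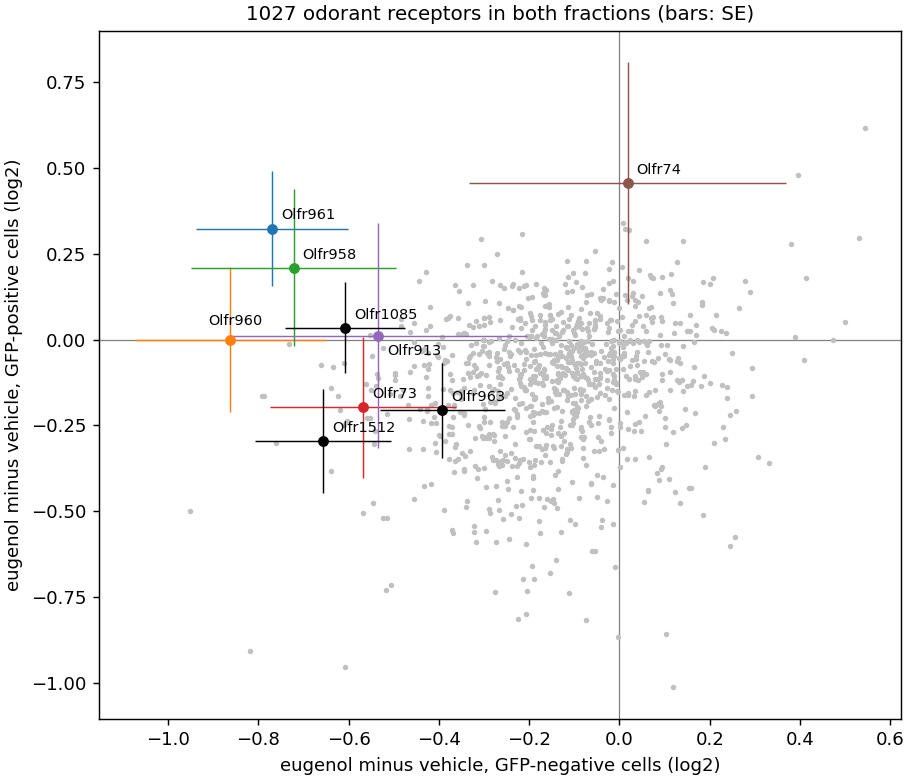
Eugenol minus vehicle (log2) in GFP-negative cells (horizontal axis) and in GFP-positive cells (vertical axis) for 1027 odorant receptors as grey points. Bars on the named receptors are the SE of the fit. Olfr961 and Olfr958 lie at the upper left, at -0.77 and 0.32 and at -0.72 and 0.21, and Olfr960 lies on the horizontal line at 0.00.

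Muscone experiments, with vehicle arrays of their own, gave a measure of odorant stimulation in the same fraction. There, Olfr961 differed between muscone and vehicle by -0.26 (SE 0.17), Olfr960 by -0.04 (SE 0.21) and Olfr958 by -0.14 (SE 0.23). The eugenol effect minus the muscone effect was -0.51 (SE 0.24) for Olfr961, -0.82 (SE 0.30) for Olfr960 and -0.59 (SE 0.32) for Olfr958. Olfr73 was also low with muscone, at -0.64 (SE 0.21), and its effects differed by 0.07 (SE 0.29). Olfr1085 was at -0.31 with muscone and its effects differed by -0.30 (SE 0.19). Over the 4 measured receptors linked to muscone, the median difference was -1.26 with muscone and -0.21 with eugenol. That list too was chosen with earlier results of these data known, so it is not independent evidence of its direction. No gene passed the test of the difference between the odorants: 0 of 19938 (0%) had an adjusted p under 0.05 in limma. At a raw p under 0.05 there were 710, and 776 without eugenol experiment 1, both fewer than chance alone would give. Several list medians had the same sign with either odorant. The odorant receptors were at -0.25 with muscone and -0.14 with eugenol, the mature neuron markers at -0.14 and -0.10, the trace amine-associated receptors at -0.27 and -0.17, and the cell cycle genes at 0.24 and 0.23. The immature neuron markers differed in sign, at -0.17 with muscone and 0.11 with eugenol.

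Genes of mature olfactory neurons were slightly lower with eugenol. All 15 mature neuron markers had a negative difference, beside 66.4% of all genes. Their median was -0.10, and 0 had a raw p under 0.05. Experiments 1 to 4 gave medians of 0.02, -0.36, -0.11 and -0.07. Without experiment 2 the median was -0.04, and arrays centred on the odorant receptors turned it to 0.03. Cnga4, a subunit of the cyclic nucleotide-gated channel, was at -0.21 (SE 0.11), and at -0.11 without experiment 2. Omp was at -0.04 (SE 0.09), which became 0.09 under that centring. All 18 genes of the odour transduction list, 11 of them shared with the markers, were also negative, with a median of -0.14 (-0.05 without experiment 2). Camk4, a calcium-dependent kinase, was the 1 member of 18 lower at a raw p under 0.05, beside 1.91% of all genes. It was at -0.21 (SE 0.10), with -0.66 in experiment 2, and at -0.06 without that experiment. With GFP-negative cells measured in bulk, fewer neurons of a kind and less RNA per neuron cannot be told apart.

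The activity-linked genes showed little. Of 10 genes raised by olfactory neuron activity, S100a5 included, 9 were negative, beside 66.4% of all genes. Their median was -0.09 (0.02 without experiment 2), with 0 at a raw p under 0.05. The 4 genes lowered by activity had a median of -0.05. Of 19 immediate early genes, switched on soon after a neuron fires, 16 were negative with a median of -0.08. Fosb, a transcription factor of this class, was at -0.33 (SE 0.28), or -0.18 without experiment 3. Egr2, another, was at -0.39 (SE 0.34), or -0.24 without experiment 2. Trace amine-associated receptors, a separate small family of olfactory receptors, were negative in all 13 members, beside 79.3% of odorant receptors. Their median was -0.17. That median was -0.78 in experiment 2, between 0.01 and 0.10 in the others, and -0.01 without experiment 2.

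Genes of dividing and immature cells leaned the other way. All 17 cell cycle genes were higher with eugenol, beside 6601 of all 19938 genes. Their median was 0.23, and 2 of them had a raw p under 0.05, beside 0.426% of all genes. Ccnb2, a mitotic cyclin, had signals of 11.08, 10.83, 9.89 and 11.10 under vehicle and 11.02, 11.54, 10.56 and 11.18 under eugenol. Eugenol was higher in 3 of 4 experiments, and the difference was 0.35 (SE 0.14). Aurkb, a mitotic kinase, was at 0.38 (SE 0.17). Without experiment 2 Ccnb2 was at 0.23 and Aurkb at 0.16. The experiments did not share the direction: the list's medians in experiments 1 to 4 were -0.26, 0.68, 0.40 and 0.04. Without experiment 2 the list's median was 0.07, and without experiment 1 it was 0.41.

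Basal progenitor genes, 2 of 9 shared with the cell cycle list, had a median of 0.20, with medians of -0.24, 0.32, 0.32 and 0.20 in experiments 1 to 4. Leaving out experiment 2 or 3 gave 0.11, and leaving out experiment 1 gave 0.32. Of the 9, 8 were higher, beside 6601 of all 19938 genes, and 0 had a raw p under 0.05. Neurod1, a proneural transcription factor, was at 0.35 (SE 0.23), Top2a, a topoisomerase of dividing cells, at 0.28 (SE 0.17), and Hes6, a transcription factor of neuronal differentiation, at 0.21 (SE 0.11). For Top2a the mean of all its probe sets gave 0.01, and leaving out experiment 2 gave 0.11. Without experiment 3 Neurod1 was at 0.23 and Hes6 at 0.11, and without experiment 1 these 3 genes were at 0.33 to 0.58. Immature neuron genes had a median of 0.11, with 9 of 11 higher. Ablim1, an actin-binding protein, was at 0.33 (SE 0.14; 0.18 without experiment 2) and was higher in all 4 experiments, and Gng8, a G protein subunit of immature olfactory neurons, was at 0.21 (SE 0.19), or 0.06 without experiment 2.

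In GFP-positive cells the basal progenitor and cell cycle lists had negative medians, which was not particular to them. The sustentacular and immune medians there were -0.67 and -0.41. Median differences between fractions were 0.79 and 0.52 for these, with 0 genes of either higher in GFP-negative cells at a raw p under 0.05. They were 0.47 for basal progenitor and 0.40 for cell cycle genes, and -0.12 and -0.08 for microvillous and endothelial genes. The basal progenitor median was -0.45 in GFP-positive cells, and 5 of 9 genes had a raw p under 0.05 for a higher value in GFP-negative cells, beside 0.727% of all genes. The cell cycle median was -0.13 there, and 5 of 17 genes met the same rule. Top2a differed between the fractions by 0.75 (SE 0.24), Neurod1 by 0.88 (SE 0.32) and Ablim1 by 0.70 (SE 0.20), all with an adjusted p of 0.9999 in limma. In GFP-negative cells the differences of these genes, though not their signals, were highest in experiments 2 and 3. These are also the experiments with the lowest median differences of odorant receptors (-0.54 and -0.10) and mature neuron genes (-0.36 and -0.11). The part of cell composition in the receptor differences was not tested.

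The marker lists of other cells varied between experiments. Sustentacular cells, which support the neurons, had a median of 0.14 and 7 of 8 markers higher, beside 6601 of all 19938 genes. Experiment 2 gave 0.41, and without it the median was 0.06. Bowman's gland markers had a median of 0.11, with 0.45 in experiment 2 and 0.32 in experiment 3, and 0.01 without experiment 2. Immune markers had a median of 0.01, with 9 of 15 higher and 6 lower, and experiments 1 to 4 gave -0.29, -0.14, 0.42 and -0.12. Without experiment 3 their median was -0.14. Ly6g, a neutrophil surface protein, was the highest of the 15, at 0.51 (SE 0.26), and the lowest of them was at -0.17. Ly6g was at 1.30 in experiment 2 and -0.28 in experiment 1, and at 0.25 without experiment 2. Respiratory ciliated markers had a median of -0.15, and 2 of 10 were lower at a raw p under 0.05, beside 1.91% of all genes. These were Dnaic1, a motor protein of motile cilia, at -0.28 (SE 0.12) and Foxj1, the transcription factor of ciliated cells, at -0.23 (SE 0.11). Under vehicle both had higher signals in GFP-positive than in GFP-negative cells, 9.74 against 9.13 for Dnaic1 and 10.50 against 10.135 for Foxj1. Their differences therefore cannot be read as those of respiratory cells alone. Without experiment 2 the median was -0.05, Dnaic1 was at -0.11 and Foxj1 at -0.07. In summed signal the immune list was at 15.95, 15.925, 14.89 and 15.74 on the vehicle arrays of experiments 1 to 4. On the eugenol arrays it was at 15.66, 16.06, 15.31 and 15.69. Eugenol was thus higher in experiments 2 and 3 and lower in experiments 1 and 4.

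**Figure D4:**
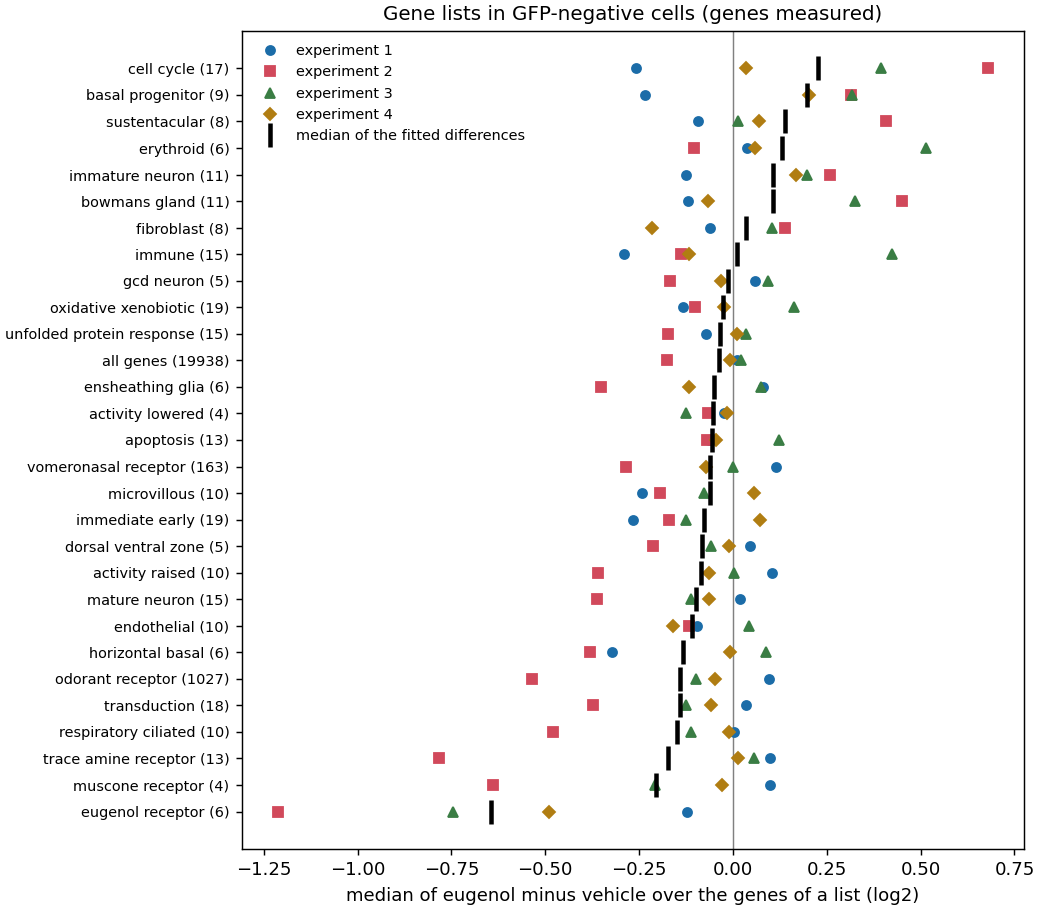
Median of eugenol minus vehicle (log2, horizontal axis) over the genes of each list in GFP-negative cells, with the number of genes measured in brackets. Coloured points are the 4 experiments and black ticks the median of the fitted differences. The receptors linked to eugenol have the lowest tick, at -0.65, and the cell cycle genes the highest, at 0.23, with experiment 1 on the opposite side of 0 from the tick in the cell cycle list.

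Stress-response genes had medians near 0 in these cells. The unfolded protein response genes, which vary with the receptor a neuron expresses, had a median of -0.03, and 0 of 15 had a raw p under 0.05. Genes of oxidative and xenobiotic defence had a median of -0.03, and 1 of 19 was lower at a raw p under 0.05, beside 1.91% of all genes. This was Srxn1, which repairs oxidised peroxiredoxins, at -0.23 (SE 0.10), and at -0.14 without experiment 2. Of 13 apoptosis genes 0 had a raw p under 0.05, and their median was -0.06. The microvillous, endothelial, ensheathing glia and fibroblast lists had medians of -0.06, -0.11, -0.05 and 0.03, each with 0 genes at a raw p under 0.05.

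Outside the receptor family the smallest p among genes lower in all 4 experiments was that of Klk1b5, a kallikrein-related protease, at -0.39 (SE 0.10). It was at -0.41 in GFP-positive cells as well, and at -0.25 here without experiment 2. Wnk3, a kinase that controls ion transport, was at -0.30 (SE 0.09), and Hus1, part of the DNA damage checkpoint clamp, at -0.26 (SE 0.08). Usp51, a deubiquitinase, was at -0.40 (SE 0.12), with all 4 experiments between -0.48 and -0.28. Among genes higher in all 4 experiments Tlx3, a homeobox transcription factor, had the smallest p, at 0.18 (SE 0.06). Rad54b, a DNA repair helicase, was at 0.36 (SE 0.12), and Tnfsf14, a cytokine of the tumour necrosis factor family, was at 0.47 (SE 0.17), or 0.27 without experiment 2. The adjusted p of each of these 7 genes was 0.9999.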

How the data were processed

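Per the labels' protocols, biotin-labelled cRNA was made from the RNA of sorted cells for Affymetrix arrays. The authors deposited log2 intensities for 35556 probe sets, made in Affymetrix Expression Console per the submitters' processing notes. Its version, background correction and normalization are not stated in these notes. Values ran from 1.80 to 14.95 with 0 missing, and they were used as deposited.

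The platform annotation gave 1 gene symbol for 21789 probe sets, several for 1621 and none for 12146. Gene IDs of 21698 matched the RefSeq table of GRCm38.p6. Tests covered the probe sets with 1 symbol, and for 999 genes with several the brightest over the 32 arrays was taken.

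All 32 arrays entered 1 limma 3.58.1 fit (R 4.3.3) with a mean for each of 8 groups and a fixed block for the experiment, leaving 18 residual degrees of freedom. Tests were two-sided, with Benjamini-Hochberg adjustment over 19938 genes and a threshold of 0.05. The pairing comes from the number shared in the titles. Deviations from group means correlated at 0.29 to 0.65 between same-numbered arrays of the 2 groups and at -0.30 to -0.01 between others. Because each group was centred on its own mean, the second range is tied to the first and is no separate check of the pairing. The fit was tested on simulated data. Sequences come from RefSeq promoter windows of GRCm38.p6, which held 5 of the 6 receptors linked to eugenol, and were aligned with Biopython 1.88. With 4 arrays per group, their number limits the precision.

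Genes named were the 10 per direction with the smallest p among genes above the dim level with 1 sign in all experiments, 8 odorant receptors per direction by the same rule, and in each list at most 4 members, by p. S100a5, Omp and the 6 receptors linked to eugenol were always named, and genes outside the rule are marked, except neighbours of Olfr961 and the closest sequence match. The members and lists were chosen with earlier results of these data known. Alternatives changed the scaling, block, arrays fitted, array weights, variance model, dim filter, choice of probe set and replicates.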

Additional observations from a re-analysis of the deposited data

Results flagged for a closer look

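Of 118 sets of 4 values examined, 8 held a value far from the other 3 by Dixon's test, which chance alone would do in about 1 in 20 sets. Of these, 6 were differences by experiment, 5 of them in experiment 2 and 1 in experiment 3. Olfr965, which lies near Olfr961 on chromosome 9, had its lowest difference, -1.20, in experiment 2. Foxj1 had its lowest, -0.70, and the sustentacular mucin gene Muc2 its highest, 0.96, in the same experiment. The median of the trace amine-associated receptors was -0.78 and that of all genes -0.18 in experiment 2, each far below the other experiments. The median of the apoptosis genes was highest, at 0.12, in experiment 3. The other 2 were levels under vehicle in GFP-negative cells: Olfr958 at 11.07 and Olfr960 at 9.30 in experiment 2, each far above the other 3 vehicle arrays. The sources of these values were not tested.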

How the results depend on the processing

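The count of genes past the threshold was 0 in every alternative run, for the comparison, for the difference between fractions and for the difference between odorants. Without the replicate block 1 gene had a raw p under 0.05 in the comparison, and the counts at that p were 0 odorant receptors lower, 0 higher and 0 receptors linked to eugenol lower, against 46, 4 and 4 in the paired fit. Olfr961 was between -0.95 and -0.62 over 15 alternatives, with an adjusted p from 0.185 (array weights) to 1. Centring on odorant receptors moved the median of all genes from -0.04 to 0.09. The odorant receptors lower at a raw p under 0.05 numbered 20 with arrays centred on mature neuron genes, 20 centred on odorant receptors, 83 with 16 arrays and 90 with 8 arrays fitted. Those higher numbered 10, 14, 8 and 9 in the same order and 11 with array weights. Receptors lower by more than 0.5 numbered 44, and 21 and 14 under the centrings and 12 with array weights. With each experiment left out in turn, the receptors lower at a raw p numbered 9 (without 2) to 108 (without 1), and those lower by more than 0.5 numbered 8 (without 2) to 130 (without 1). Differences that changed sign were those of Olfr957 (0.028 and 0.058 under the centrings, 0.161 with array weights), Olfr149 (0.034 and 0.064), Omp (0.062 and 0.092) and Olfr959 (0.021 centred on odorant receptors). Olfr74 was at -0.245 with array weights. With experiments left out, Olfr74 ran from -0.193 (without 2) to 0.215, Olfr149 from -0.175 to 0.056 (without 3) and Olfr965 from -0.405 to 0.038 (without 2). The causes were not tested. Precision is limited by 4 arrays per group.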
